A study of Rattus norvegicus with 12 samples.

Results

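Fgf2 and Pdcd10 are a pair of genes of vessel growth and vessel stability that were measured in rat thoracic aorta. They were chosen by accession: 1 array probe carries the accession of rat Fgf2 (NM_019305, probe A_44_P212850) and 1 that of rat Pdcd10 (NM_001009542, probe A_43_P19174). They are 2 of the 38 genes that could be named on an array of 38321 probes that are not controls, and each probe was printed as 10 spots per array. Both passed the filter on dim probes, as did 32 of the 38 named genes.

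Each of the 12 samples was total RNA of the thoracic aorta of male rats, read on its own Agilent array in the single dye Cy3, with 3 arrays per group. WKY were Wistar-Kyoto rats, the usual normotensive counterpart of the spontaneously hypertensive rat (SHR), given drinking water by gavage. SHR-C were SHRs given the same volume of water, SHR-Bh were SHRs given the high dose of BSJY, a preparation of 8 herbal granules, and SHR-Ca were SHRs given captopril, an inhibitor of angiotensin-converting enzyme. Gavage was once daily for 16 weeks from an age of 12 weeks, which adds up to 28 weeks, while the sample labels give 32 weeks. The labels also say, for every group and with no dose, that the aorta was irradiated. Whether an array stands for 1 animal is not stated, so the p-values measure only the spread between samples, which may be technical. The whole vessel wall was taken, so fewer cells of a type and less RNA per cell cannot be told apart.

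Fgf2 encodes basic fibroblast growth factor, a mitogen of endothelial and smooth muscle cells. It leaves cells without a classical signal peptide, is held by heparan sulphate in the matrix, and signals through receptor tyrosine kinases of the FGFR family. Pdcd10, also called CCM3, encodes an adaptor that binds kinases of the germinal centre family and the STRIPAK complex. Together with the products of Krit1 and Ccm2 it is known for cerebral cavernous malformation, a disease of leaky and dilated vessels that follows loss of any of these genes.

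A stretch of sequence upstream of each gene is shown to place the transcripts that the probes report on. It leaves out the bases nearest to the start, so a motif match there would not be seen. Both windows hold 172 bases, from base 250 to base 79 before an annotated transcript start, and are credited to RefSeq on GRCr8. Both were cut to the same length so that neither held bases inside another annotated transcript of its gene. That of Fgf2 is chr2:122164204-122164375 on the plus strand and that of Pdcd10 is chr2:162644691-162644862 on the minus strand. Capitals mark matches, on either strand, to the GC box (GGGCGG), the CCAAT box (CCAAT), the TATA box (TATAAA) or the E-box (CACGTG).
Fgf2: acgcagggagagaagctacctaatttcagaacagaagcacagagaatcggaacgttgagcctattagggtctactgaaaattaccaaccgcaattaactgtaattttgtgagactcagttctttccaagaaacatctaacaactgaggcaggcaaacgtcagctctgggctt
Pdcd10: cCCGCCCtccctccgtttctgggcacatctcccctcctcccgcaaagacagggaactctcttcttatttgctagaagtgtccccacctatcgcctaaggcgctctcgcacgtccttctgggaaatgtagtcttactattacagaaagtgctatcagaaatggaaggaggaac

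The Pdcd10 window held 1 GC box, which 19.7% of all 33469 promoter windows of this length hold. The Fgf2 window held none of the letters searched, and the CCAAT box, TATA box and E-box, with no match in either, occur in 24.7%, 8.67% and 3.39% of the windows. Fgf2 had 5 CpG and 43.6% G and C, and Pdcd10 had 7 CpG and 52.3%, beside medians of 3 and 50.6% over the windows. Both genes lie on chromosome 2. Fgf2 overlaps its antisense partner Nudt6 by 766 bases on the opposite strand, and Pdcd10 starts head to head with Serpini1, 518 bases apart in that annotation. Neither neighbour is named on the array, and no sequence of either probe is given in the sources used here.

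Levels are log2 processed intensities minus the log2 of the 75th percentile of that array. The percentile ran from 182.0 to 384.8 intensity units in WKY and from 109.8 to 190.2 in SHR, and 73.9% to 87.9% of probes in WKY, but 51.2% to 68.6% in SHR, stood well above background. All 3 WKY arrays were scanned together and apart from every SHR array, so in any comparison with WKY the strain and the scan session cannot be told apart. None of the 50 cell type markers listed for the vessel wall is named on the array, so the tissue label and the mix of cells could not be checked. Of 141 genes listed for FGF signalling, the CCM complex, vessel growth and cell types, only Fgf2 and Pdcd10 are named.

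The 2 probes stood on very different signal. Pdcd10 was well above background at all 120 spots, with a geometric mean intensity per array of 484 to 1530, beside a local background of 14.8 to 21. Fgf2 had a geometric mean intensity per array of 9.18 to 93.1 beside a local background of 14.0 to 20.8. Of its 120 spots, 6 were outliers and were left out, and 99 of the other 114 were well above background. The 12 arrays are the limit on precision for both. On a single array the 10 spots of Pdcd10 had an SD of 0.05 to 0.15 on the log2 scale, while those of Fgf2 had an SD of 0.07 to 0.59. The largest of these was on SHR-Bh 2, where none of the 10 Fgf2 spots was well above background.

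**Figure D1:**
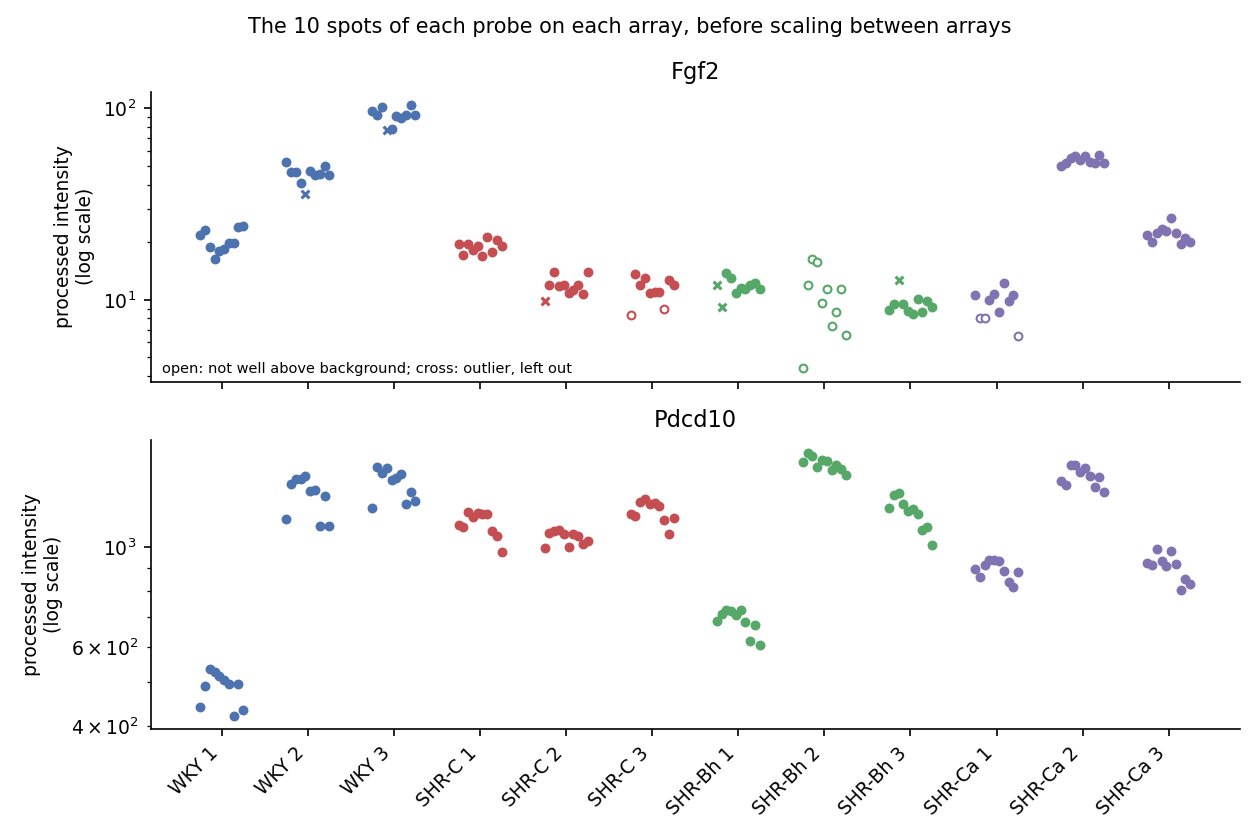
Processed intensity, on a log axis and before any scaling between arrays, of the 10 spots of the Fgf2 probe and of the Pdcd10 probe on each of the 12 arrays, coloured by group. Open circles are spots not well above background and crosses are outliers that were left out. The Pdcd10 spots of WKY 2 and WKY 3 overlap those of SHR arrays, and the Fgf2 spots of SHR-Ca 2 lie between 50 and 57.5, above those of the other SHR arrays.

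Pdcd10 was higher in the aorta of untreated hypertensive rats than in that of the normotensive strain. Its level was 1.41, 1.91 and 1.84 on WKY 1, 2 and 3 and 2.57, 2.78 and 2.99 on SHR-C 1, 2 and 3. The lowest SHR-C array lay above the highest WKY array. The mean was 1.72 ± 0.27 for WKY and 2.78 ± 0.21 for SHR-C (SD, n = 3), so that Pdcd10 rose by 1.06 (SE 0.23, 95% confidence interval 0.55 to 1.56, limma adjusted p = 0.002), or 2.08-fold. Pdcd10 was 1 of 18 named genes that rose among the 32 tested. Over all 29614 probes tested, 61.7% passed in this comparison, 21.9% higher in SHR-C, and the groups did not overlap for 71.2%, so a call or a lack of overlap is common here.

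The size of the Pdcd10 rise followed the scaling, while its direction did not change. The median change over all tested probes was -0.42, and relative to it Pdcd10 rose by 1.48. The rise was 0.79 with quantile normalization, 0.79 with normexp background correction, 0.74 with the 75th percentile of probes well above background on all arrays and 1.88 with scaling to the median. Of all probes called, 35.5% were higher in SHR-C, against 47.7%, 57.1%, 27.0% and 60.1% under these settings. Before any scaling the log2 intensity of Pdcd10 was 10.13 ± 0.10 in SHR-C and 9.90 ± 0.85 in WKY, and the groups overlapped. Its rank moved as the level did: 84.9% to 86.7% of probes lay below it in WKY, against 88.7% to 90.0% over the 9 SHR arrays.

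Fgf2 did not pass the test in the same comparison. Its level was -3.16, -2.89 and -2.05 on WKY 1, 2 and 3 and -3.33, -3.67 and -3.75 on SHR-C 1, 2 and 3. The SHR-C arrays lay together just under the lowest WKY array, and the WKY arrays were the more spread. The means were -3.59 ± 0.22 in SHR-C and -2.70 ± 0.58 in WKY, a difference of -0.88 (SE 0.49, interval -1.97 to 0.20, limma adjusted p = 0.14) by the 75th percentile, which was -0.06 with median scaling and turned to 0.11 with quantile normalization and to 0.15 with normexp. Normexp adds an offset of 50 before the log2, which narrows differences of a probe as dim as Fgf2 (9.18 to 93.1 per array). It therefore cannot judge the size of Fgf2 differences, here or below. Before any scaling the mean log2 intensity of Fgf2 was 5.47 ± 1.1 in WKY. It was 3.77 ± 0.41 for SHR-C, 3.35 ± 0.21 for SHR-Bh and 4.48 ± 1.26 for SHR-Ca, and of these SHR groups only SHR-Ca overlapped WKY. The share of probes below Fgf2 was 35.9% to 52.3% in WKY, against 43.7% to 44.7% in SHR-C, so by rank SHR-C lay inside the WKY range. Without WKY 3 the difference was -0.56 (adjusted p = 0.40). It passed with array weights (-0.91, adjusted p = 0.028) and when the treated groups were left out of the fit (-0.88, adjusted p = 0.045). These settings called 21828 and 19420 of the 29614 probes tested, so a call is common there too.

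**Figure D2:**
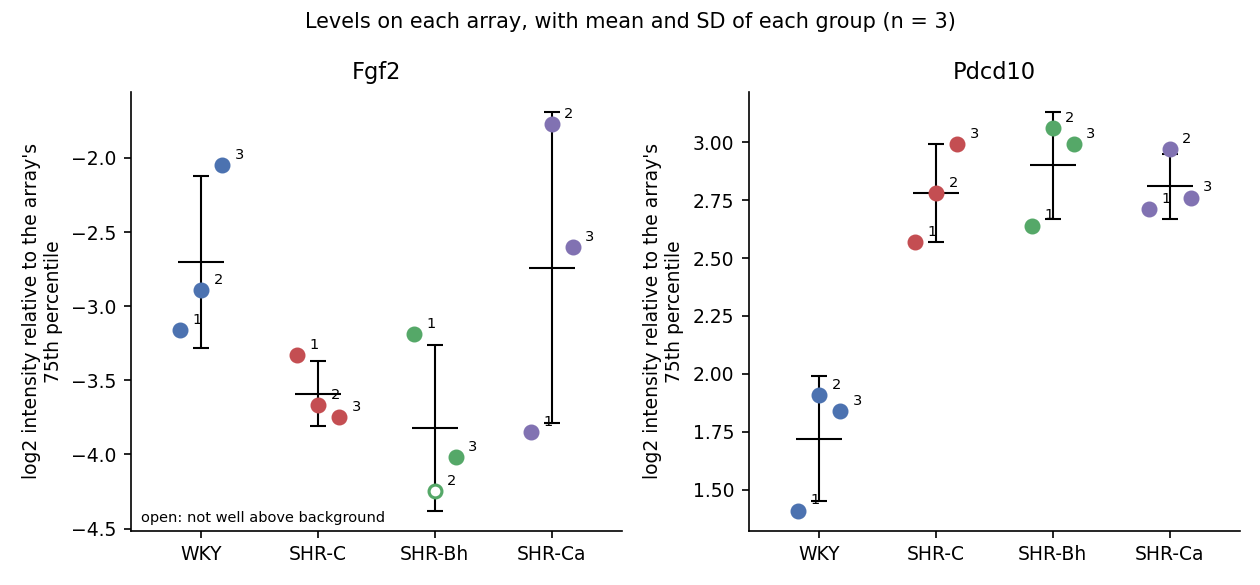
Level of Fgf2 and Pdcd10 on each array, as log2 of its intensity over the 75th percentile of the array, with the replicate number beside each point and the mean and SD of the 3 arrays of a group as bars; the open point is not well above background. For Pdcd10 all 9 SHR arrays, at 2.57 to 3.06, lie above the 3 WKY arrays, at 1.41 to 1.91, while for Fgf2 the SHR-Ca arrays span -3.85 to -1.77.

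Within an array the gap between the probes does not depend on how the array is scaled by a constant. Pdcd10 minus Fgf2 was 4.57, 4.80 and 3.89 on WKY 1, 2 and 3 and 5.90, 6.45 and 6.74 on SHR-C 1, 2 and 3. The groups did not overlap, with means of 4.42 ± 0.48 and 6.36 ± 0.43. They also did not overlap for 71.2% of single tested probes, and the share among gaps of other probe pairs was not computed. In the treated groups the gap was 5.83, 7.31 and 7.02 on SHR-Bh 1, 2 and 3 and 6.56, 4.74 and 5.36 on SHR-Ca 1, 2 and 3, and SHR-Ca 2 lay inside the WKY range. The gap was wider in SHR-C by 1.94 (two-sided exact permutation p = 0.10, the smallest that 3 against 3 arrays can give). A gap within an array cannot tell which of the probes differed. It shrank to 0.64 with normexp (exact permutation p = 0.30), whose offset narrows differences of Fgf2, and to 0.68 with quantile normalization.

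No difference in Pdcd10 between treated and untreated SHRs passed the test. Pdcd10 was 2.64, 3.06 and 2.99 on SHR-Bh 1, 2 and 3 and 2.71, 2.97 and 2.76 on SHR-Ca 1, 2 and 3. Of these values only that of SHR-Bh 2 lay clearly above the span of the SHR-C arrays, none lay below it, and the 3 SHR groups overlapped. SHR-Bh differed from SHR-C by 0.12 (SE 0.23, interval -0.38 to 0.62, limma adjusted p = 0.86) and SHR-Ca from SHR-C by 0.04 (SE 0.23, interval -0.47 to 0.54, adjusted p = 0.96). SHR-Bh and SHR-Ca differed by 0.08 (SE 0.23, interval -0.42 to 0.58, adjusted p = 0.95). These intervals span folds from 0.724 to 1.54, and in each comparison a change within its interval is not excluded. Few probes passed in any of these comparisons: 0.0945% for SHR-Bh against SHR-C, 0.28% for SHR-Ca against SHR-C and 0% for SHR-Bh against SHR-Ca, the last with 2126 probes at an unadjusted p under 0.05 in limma. The groups did not overlap for 15.7%, 16.6% and 9.48% of probes, in that order.

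Set against WKY, both treated groups had more Pdcd10 by the 75th percentile. SHR-Bh, at 2.90 ± 0.23, was higher than WKY by 1.17 (SE 0.23, interval 0.67 to 1.68, limma adjusted p = 0.00084), or 2.26-fold, where 67.2% of tested probes passed, 24.4% were higher calls, and 74.9% did not overlap. SHR-Ca, at 2.81 ± 0.14, was higher by 1.09 (SE 0.23, interval 0.59 to 1.59, adjusted p = 0.0014), or 2.13-fold, where 66.4% passed, 23.5% were higher calls, and 71.4% did not overlap. These comparisons use the same 3 WKY arrays as that of SHR-C. By the 75th percentile the order of the group means was SHR-Bh, SHR-Ca, SHR-C and WKY, and only the step down to WKY exceeded the spread between arrays. Over the 9 SHR arrays Pdcd10 had a range of 0.49, or 1.41-fold.

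By the 75th percentile the Fgf2 arrays were most spread in the captopril group. The same held with quantile normalization (SD 0.94, next WKY at 0.80) and with median scaling (1.05, next WKY at 0.61). It also held with the percentile of probes well above background on all arrays (1.05, next SHR-Bh at 0.75). With normexp this did not hold, but its offset of 50 by itself narrows the spread of a probe as dim as Fgf2. The SD was then 0.32 for WKY, 0.27 for SHR-Bh and 0.21 for both SHR-C and SHR-Ca. By the 75th percentile Fgf2 was -3.85, -1.77 and -2.60 on SHR-Ca 1, 2 and 3, a span of 4.22-fold. SHR-Ca 1 lay below every SHR-C array and SHR-Ca 2 was the highest of all 12. The spots did not overlap between these arrays: on SHR-Ca 1 they ran from 6.51 to 12.3, with 7 of 10 well above background, on SHR-Ca 3 from 19.6 to 26.8, and on SHR-Ca 2 from 50 to 57.5. The SD between the SHR-Ca arrays was 1.05, larger than in 89.4% of tested probes, whose median was 0.40. By this rank Fgf2 was as spread in WKY, with an SD of 0.58, larger than in 89.3% of probes (median 0.23). The share was 70.4% in SHR-Bh and 25.2% in SHR-C. SHR-Ca 1 and SHR-Ca 2 were in the same scan session as SHR-C 2 and SHR-C 3.

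Neither treatment passed the test for Fgf2. SHR-Ca, at -2.74 ± 1.05, differed from SHR-C by 0.84 (SE 0.49, interval -0.24 to 1.93, limma adjusted p = 0.49), and the groups overlapped. The difference was 0.36 without SHR-Ca 2, 1.40 (adjusted p = 0.14) without SHR-Ca 1 and 0.16 with normexp. Within the session that held 2 arrays of each group it was 0.90 for Fgf2 and -0.04 for Pdcd10. Of the SHR-Ca arrays there, only SHR-Ca 2 (-1.77) lay above SHR-C 2 (-3.67) and SHR-C 3 (-3.75) in Fgf2, and SHR-Ca 1 (-3.85) lay below them. In SHR-Bh, Fgf2 was -3.19, -4.25 and -4.02 on arrays 1, 2 and 3, and 2 of these 3 arrays had it well above background. SHR-Bh, at -3.82 ± 0.56, differed from SHR-C by -0.24 (SE 0.49, interval -1.33 to 0.85, adjusted p = 0.87). Without SHR-Bh 2 that was -0.02, and with SHR-Bh 2 raised to the lowest level well above background on it, -3.51, it was 0.0087.

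Among the SHR groups the widest gap in mean Fgf2 lay between the treatments. SHR-Bh minus SHR-Ca was -1.08 (SE 0.49, interval -2.17 to 0.00, limma adjusted p = 0.69, unadjusted 0.051), and the groups overlapped through SHR-Ca 1. It passed with array weights (-1.31, adjusted p = 0.040), a setting that took the probes called in this comparison from 0 to 4125. Leaving out SHR-Ca 2 gave -0.60, leaving out SHR-Ca 1 gave -1.64, and normexp gave -0.25. The session that held both groups, with 2 SHR-Bh arrays and 1 SHR-Ca array, gave -1.01 for Fgf2 and 0.06 for Pdcd10.

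Against WKY, SHR-Bh differed in Fgf2 by -1.12 (SE 0.49, interval -2.21 to -0.04, limma adjusted p = 0.064) and SHR-Ca by -0.04 (SE 0.49, interval -1.13 to 1.05, adjusted p = 0.95). The first became -0.11 with median scaling, 0.11 with quantile normalization and 0.05 with normexp, and the second became 0.91, 1.03 and 0.31. The first passed without SHR-Bh 1 (-1.44, adjusted p = 0.035), where 19586 of 29614 probes passed. That leaves SHR-Bh 2, not well above background, as 1 of 2 arrays. The first was -0.91 without SHR-Bh 2 (adjusted p = 0.18) and -0.88 with SHR-Bh 2 raised as above (adjusted p = 0.13). The highest SHR-Bh array, at -3.19, lay just under the lowest WKY array, at -3.16, and SHR-Ca overlapped WKY. The order of the Fgf2 means was WKY, SHR-Ca, SHR-C and SHR-Bh, and no neighbours in it differed beyond their spread.

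**Figure D3:**
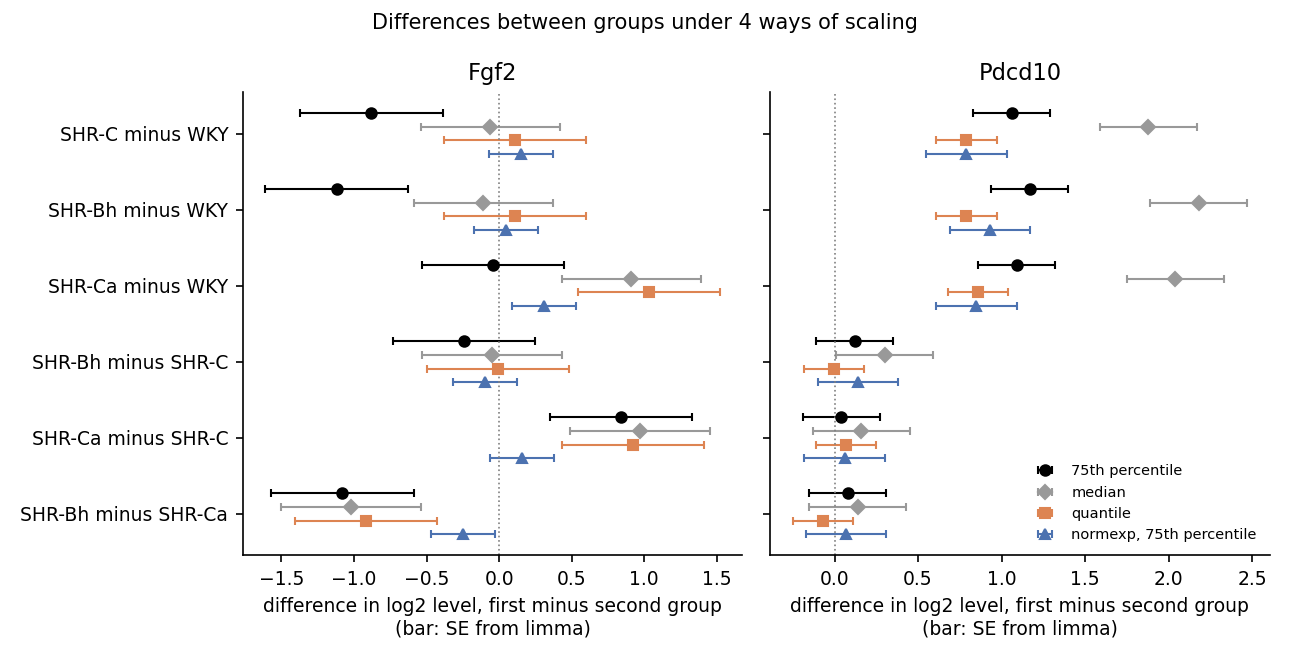
Differences in log2 level between groups (first minus second) for Fgf2 and Pdcd10 under 4 settings: the 75th percentile, the median, quantile normalization, and normexp background correction followed by the 75th percentile. Bars are the SE from limma. The comparisons of Pdcd10 with WKY lie above 0 in all 4 settings, from 0.79 to 2.18, while the Fgf2 differences from WKY lie on both sides of 0.

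The array profile of Pdcd10 was close to that of several other named genes. After each probe's own mean over the 12 arrays was subtracted, the root mean square difference from Pdcd10 was 0.10 for Ndfip2, 0.15 for Ndfip1 and 0.18 for Hprt1, the 3 nearest of 31 named genes. Pdcd10 itself deviated from its mean by 0.51 on that measure. Cse1l was next at 0.19, and B2m, ranked 11, was at 0.43, still under that 0.51. Ndfip1 and Ndfip2 encode membrane adaptors of Nedd4-family ubiquitin ligases, and Hprt1 encodes an enzyme of purine salvage often used as a reference gene. Ndfip2 was 1.25 ± 0.31 in WKY and 2.23 ± 0.13 in SHR-C, Ndfip1 was 2.33 ± 0.39 and 3.58 ± 0.06, and Hprt1 was 3.13 ± 0.15 and 3.96 ± 0.22. The 12 arrays share their scaling and scan sessions across genes, so the likeness is a description. Within groups alone the differences were 0.09 for Ndfip2, 0.13 for Ndfip1 and 0.15 for Hprt1, beside 0.18 for the deviation of Pdcd10 from its own group means. Cse1l was also at 0.09 within groups.

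For Fgf2 the nearest named genes lay farther off. They were Actb, which encodes cytoskeletal actin, Pop7, a subunit of ribonuclease P, and Gusb, a lysosomal glucuronidase, at root mean square differences of 0.70, 0.71 and 0.75. Fgf2 deviated from its own mean by 0.74. Within groups alone these differences were 0.44, 0.50 and 0.59, beside 0.55 for the deviation of Fgf2 from its own group means, and the order of the genes was another one. Ptk2b (0.31), Pld1 (0.37) and Cdh2 (0.43) were then nearest, at 1.13, 1.02 and 1.82 over all arrays. They are given here after their values were seen.

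**Figure D4:**
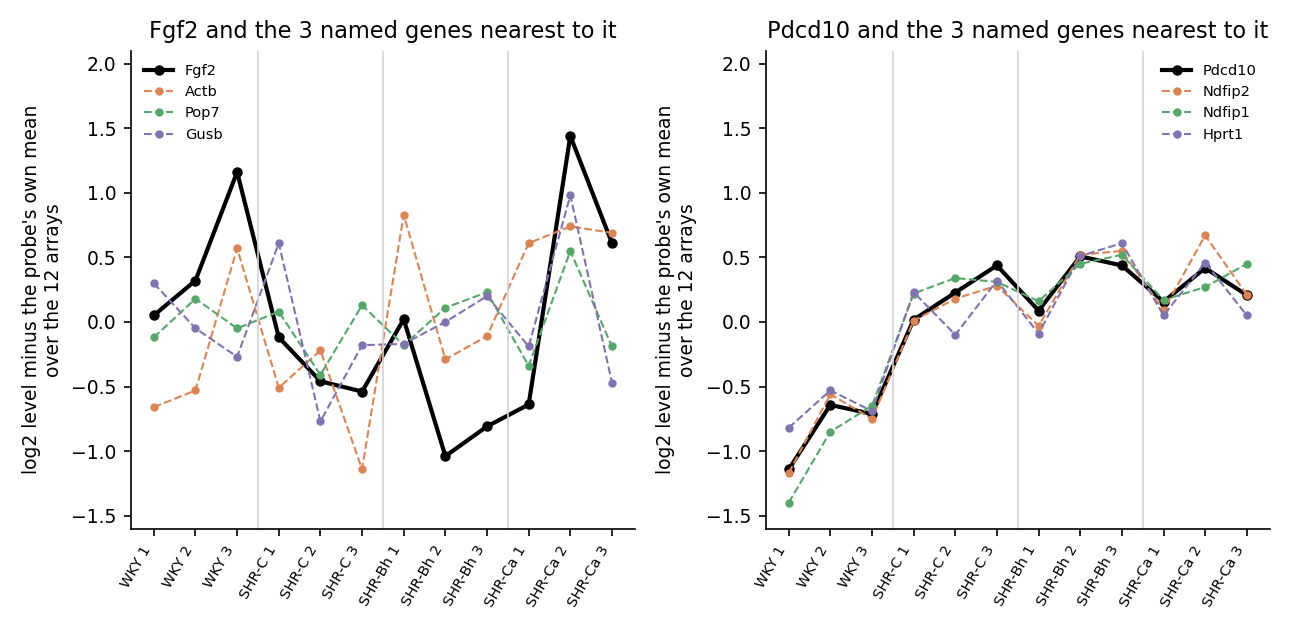
Log2 level on each array minus the probe's own mean over the 12 arrays, for Fgf2 and for Pdcd10 with the 3 named genes nearest to each; lines only join the points of a gene. The Pdcd10 curve and its neighbours, at differences of 0.10 to 0.18, step up between WKY 3 and SHR-C 1, while the Fgf2 curve peaks on SHR-Ca 2 and its nearest gene differs by 0.70.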

How the data were processed

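The authors deposited a scanner output for every array, which lists spot intensity. Background subtraction and spatial detrending were done in Agilent Feature Extraction 11.0.1.1, per the file headers, and its flags give saturation, outliers and spots well above background; no spot of either probe was saturated. Spots flagged as outliers were left out, the log2 intensities of the remaining spots were averaged per probe, and the array's 75th percentile was subtracted. A probe counted as well above background on an array where over 50% of its spots were, and was tested if this held on all 3 arrays of at least 1 group (29614 probes, 77.3%). A single limma 3.58.1 model (R 4.3.3) held the 4 groups, with moderated two-sided tests and Benjamini-Hochberg adjustment across every tested probe at a threshold of 0.05, after a test on simulated data.

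An accession was given for 62 probes, and 39 of them could be matched to 38 genes through the RefSeq table. The array design names another genome build, so coordinates are given only for the upstream windows. The members, gene lists and tests were chosen with earlier results of these data known. Named genes are the 38 so matched. The text describes the members and the 3 nearest of these to each, and names further near genes for comparison. Normexp (offset 50) used the median spot signal, as the files used here hold no mean signal. A shared scan time gave 5 sessions. Correlations of deviations between same-numbered arrays were 0.177 to 0.477 for SHR-C with WKY and 0.154 to 0.308 for SHR-Bh with WKY, but -0.167 to -0.0963 for SHR-Ca with WKY, -0.176 to 0.122 for SHR-Bh with SHR-C, -0.206 to -0.0778 for SHR-Ca with SHR-C and -0.551 to -0.0999 for SHR-Bh with SHR-Ca. The data thus show no pairing by number across all groups, and the labels state none.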

Additional observations from a re-analysis of the deposited data

How the results depend on the processing

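Pdcd10 kept its rise over WKY, and its side of the threshold, in all 19 alternatives for each SHR group: 0.74 to 1.88 in SHR-C (adjusted p 0.00015 to 0.020), 0.77 to 2.18 in SHR-Bh and 0.82 to 2.04 in SHR-Ca. No other difference of Pdcd10 passed in any alternative, and those near 0 changed sign: SHR-Bh minus SHR-C was -0.0046 with quantile normalization, SHR-Bh minus SHR-Ca -0.07 with quantile normalization and -0.05 with the percentile of probes well above background on all arrays, and SHR-Ca minus SHR-C -0.06 with array weights and -0.04 when blocked on scan session. Leaving out 1 array put the last between -0.07 and 0.14.

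For Fgf2 the difference of SHR-C from WKY turned to 0.11 with quantile normalization and 0.15 with normexp, and passed with array weights (-0.91) and with only the compared groups (-0.88). That of SHR-Bh turned to 0.11 and 0.05, and passed at -1.53 with the percentile of probes well above background on all arrays, -1.23 with array weights and -1.12 with only the compared groups. In that order these settings called 19845, 23271 and 20790 of the 29614 probes tested, so a call is common there too. Without 1 array the difference of SHR-Bh from WKY ran from -1.44 to -0.80. That of SHR-Ca turned to 1.03 with quantile normalization, 0.31 with normexp, 0.91 with median scaling, 0.00026 with the median over spots and 0.09 with array weights, and ran from -0.52 to 0.51 without 1 array. SHR-Bh minus SHR-Ca passed with array weights (-1.31), and SHR-Bh minus SHR-C was 0.0087 with the raised level, an alternative chosen after seeing the data. The within-array gap moved from 1.94 to 0.64 with normexp and 0.68 with quantile normalization. The offset in normexp by itself narrows differences of a probe as dim as Fgf2. Beyond that, the cause of these changes was not tested. The strict filter leaves Fgf2 out, since SHR-Bh 2 is not well above background.

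With the replicate number as a block, Pdcd10 differed between SHR-C and WKY by 1.06 (SE 0.20, adjusted p = 0.0018) and Fgf2 by -0.88 (SE 0.54, adjusted p = 0.18), and this pairing changed no call of either gene. The session block among SHR arrays left 3 residual degrees of freedom.

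Counts over all probes moved too. SHR-C against WKY had 18278 calls, 10830 with normexp and 9554 with the strict filter. For SHR-Bh against WKY these were 19896, 11988 and 10642, and for SHR-Ca against WKY 19654, 12286 and 10453. SHR-Bh against SHR-C had 28 calls and 0 to 263 elsewhere, SHR-Ca against SHR-C 83 and 0 to 713, and SHR-Bh against SHR-Ca 0 and 0 to 4125.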
